A study of Homo sapiens with 8 samples.

Results

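The genes described are those of the cytosolic ribosomal proteins, the protein components of the ribosomes that translate nuclear messenger RNAs. They were chosen by name: protein-coding genes whose symbol starts with RPL (large subunit) or RPS (small subunit) and a digit, together with RPSA, RPLP0, RPLP1, RPLP2 and FAU, with at least 10 expected counts in at least 4 libraries. Of 102 symbols that matched, 78 were members, 46 of the large and 32 of the small subunit, among 18973 genes tested. Left out were 10 RPS6K kinases, 8 paralogs with an L suffix, 3 readthrough loci, the binding protein RPS19BP1 and 2 ribosomal protein genes that did not reach the count minimum. RACK1, which also encodes a ribosomal protein, has another kind of symbol and is given with a related list further on.

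The tissue was xenograft tumour of T24, a human cell line established from a bladder cancer, with mice as hosts. The 4 control libraries came from tumours of T24 cells, and the 4 DDR1 libraries from tumours of T24 cells with enforced expression of DDR1, a receptor tyrosine kinase activated by collagen. The labels give neither the promoter or vector used, nor the control construct, nor whether a line was 1 clone, nor the mouse strain, age or time of growth. Whether each library is an animal of its own is not stated. The titles of DDR1 replicates 2, 3 and 4 begin alike (R71), as do those of control replicates 3 and 4 (R69_2), so p-values measure the spread between these libraries only, which may in part be technical. Titles name lane 7 for control replicates 1 and 2, no lane for control replicates 3 and 4, and lane 8 for all 4 DDR1 libraries, so lane and group cannot be told apart.

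A ribosome needs each of its proteins in roughly equal numbers, and their messenger RNAs are among the most abundant of a growing cell. Most of these messages begin with a cytosine followed by a run of pyrimidines, the 5′ terminal oligopyrimidine (TOP) tract, through which the mTOR pathway and the RNA-binding protein LARP1 adjust their translation and stability together. Assembly takes place in the nucleolus, where RNA polymerase I makes the ribosomal RNA and many assembly factors fold and trim it around the incoming proteins. Proteins made in excess are degraded.

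The family stood slightly higher in the DDR1 libraries as a whole, and no single gene of it passed the test. The log2 fold change, DDR1 minus control, was above 0 for 77 of the 78 genes, against 49.5% of all genes tested. Its median over the family was 0.37, a 1.29-fold level, with quartiles of 0.29 and 0.44; the median of all genes tested was -0.003. By edgeR's quasi-likelihood test with Benjamini-Hochberg adjustment over all genes, 0 members were called, beside 0% of all genes, and the smallest adjusted p of a member was 0.9998. An unadjusted edgeR p under 0.05 was found for 17 members, all higher in DDR1, against 1.93% of all genes in that direction and 4.17% in either. DESeq2 called 0 members, beside 0.0899% of all genes (smallest adjusted p 0.291), and 25 members had an unadjusted DESeq2 p under 0.05, against 4.85% of all genes by that tool. limma-voom and limma-trend called 0 members each, with 22 members at an unadjusted p under 0.05 each, against 3.89% and 4.32% of all genes by these tools. These counts describe 78 genes that share libraries and move together, so they are not 78 independent observations. In bulk tumour RNA, fewer cells of a type and less RNA per cell cannot be told apart.

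Several facts of the libraries stand beside these values. DDR1 itself read 138, 110, 210 and 149 CPM (counts brought to 1 common library size, with TMM scaling for differences in composition) in control replicates 1 to 4, and 159, 343, 427 and 810 CPM in DDR1 replicates 1 to 4. The library labelled DDR1 replicate 1 lay inside the control range. DDR1 thus differed by 1.52 on the log2 scale, with 0.43 as standard error (edgeR unadjusted p = 0.00612, 0.9998 adjusted over all genes). Over the 8 log2 CPM values a two-sided exact permutation test returned p = 0.0571, with 0.0286 the smallest it can reach. Without that library 73 of the 78 ribosomal protein genes were higher, with a median of 0.31 and 11 at an unadjusted p under 0.05. Expected counts totalled 13716285 to 22736649 in controls and 20789449 to 32271016 in DDR1 libraries. Of the lists that reflect RNA handling, 12 of 13 mitochondrially encoded protein genes were higher (median 0.21), as were 3 of 3 nuclear long RNAs (0.29) and 9 of 12 immediate early and heat shock genes (0.27), with 1 gene of these lists at an unadjusted p under 0.05 and 0 called. The summed level of 6 T24 markers was 2983 to 4372 CPM in controls and 2756 to 4415 CPM in DDR1. Sums of human genes that mark other cell types overlapped between the groups too. They were 17.1 to 47.2 and 7.70 to 51.1 CPM for 8 fibroblast markers and 41.7 to 117 and 23.7 to 122 CPM for 8 endothelial markers. For 8 leukocyte markers they were 17.4 to 56.6 and 33.4 to 98.2 CPM. The hosts were mice and the reads were placed on the human genome. Whether these values come from T24 cells or from mouse reads cannot be told, so they do not measure host cells. PTPRC, LYZ and TYROBP were near 0, while all 3 leukocyte markers with enough counts to test, CD68, CD14 and S100A8, had a log2 fold change above 0, with a median of 0.62. So had 3 of 4 tested endothelial markers (median 0.62) and 1 of 4 tested fibroblast markers (median -0.22), with 0 of these markers at an unadjusted edgeR p under 0.05. Red cell markers summed to 0.055 to 0.334 and 0.253 to 0.526 CPM, with HBB at 0 in each group's mean. The part of handling, other cells, lane and depth in the ribosomal protein values was not tested.

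The start of the transcript shows a feature that most of these genes share, and the 30-base windows below carry it. RefSeq windows on GRCh38.p14 around the annotated start were found for 63 of the 78 members. Each printed line runs 5′ to 3′ on the strand of the gene, from 10 bases before the start to 20 bases from it on, and capitals mark a TOP-like tract, here a C at the annotated start followed by at least 4 C or T letters. The members shown are 4 whose control and DDR1 libraries did not overlap (RPS23, RPL10, RPL28 and RPL3), the 2 with the largest log2 fold changes (RPS16 and RPS29), the only 1 below 0 (RPS7), and RPLP0, RPL11 and FAU for their roles.
RPS23: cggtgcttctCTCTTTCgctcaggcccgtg
RPL10: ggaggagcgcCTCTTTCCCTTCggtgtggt
RPL28: cctcgccttcCTCTTTCCgtctcaggtcgc
RPLP0: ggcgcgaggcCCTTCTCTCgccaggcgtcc
RPL11: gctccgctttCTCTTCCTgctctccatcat
FAU: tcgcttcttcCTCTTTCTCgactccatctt
RPS16: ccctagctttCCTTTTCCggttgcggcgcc
RPL3: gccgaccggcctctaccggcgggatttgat
RPS29: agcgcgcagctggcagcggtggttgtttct
RPS7: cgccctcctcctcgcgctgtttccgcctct
The RPS23 window lies at chr5:82278335-82278364 on the minus strand and that of RPL10 at chrX:154398367-154398396 on the plus strand, where RPL10 and RPL11 have further annotated starts without a tract. A tract at an annotated start was present in 47 of the 63 members (74.6%), against 6.07% of 14825 other protein-coding genes and 5.14% of all 27305 genes of the table with a window. Within 10 bases of the start it was present in 58 members (92.1%), against 41.2% of the other protein-coding genes. RPL3 and RPS7 have such a tract within 10 bases only, and RPS29 has none in this window. The median log2 fold change was 0.35 in the 47 members with a tract at the start and 0.33 in the 16 without, and both RPS29 (0.81) and RPS7 (-0.04) are among the 16. Among other tested genes, 746 with a tract at the start had a median of 0.02, with 53.1% above 0, and 9957 without had -0.007, with 48.7% above 0.

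Across libraries, the mean log2 CPM of the 78 genes was 8.19, 8.28, 8.35 and 8.03 in control replicates 1 to 4, and 8.75, 8.49, 8.36 and 8.75 in DDR1 replicates 1 to 4. The groups did not overlap, but the gap between control replicate 3 and DDR1 replicate 3 was 0.0085, far below the pooled within-group SD of 0.17, and the difference of the means was 0.37. As a share of all expected counts the family took 2.52%, 3.11%, 3.13% and 2.26% in controls and 4.28%, 3.39%, 2.88% and 3.83% in DDR1, so on this scale DDR1 replicate 3 fell inside the control range. The mean share was 2.76% ± 0.435 in controls and 3.59% ± 0.60 in DDR1 (SD, n = 4 each). DDR1 replicates 1 and 4 were the high libraries: 34 genes had their highest value of all 8 libraries in replicate 1 and 27 in replicate 4. Control replicate 4 was the low one, with the lowest value of 35 genes. RNA polymerase III transcripts, which are not messenger RNAs, took 15.1% of the counts in that library and 6.99% to 12.4% in the other controls, against 7.01% to 10.9% in DDR1. Leaving these transcripts and the mitochondrial genes out of the library sizes gave a family median of 0.38 with 77 genes above 0.

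**Figure D1:**
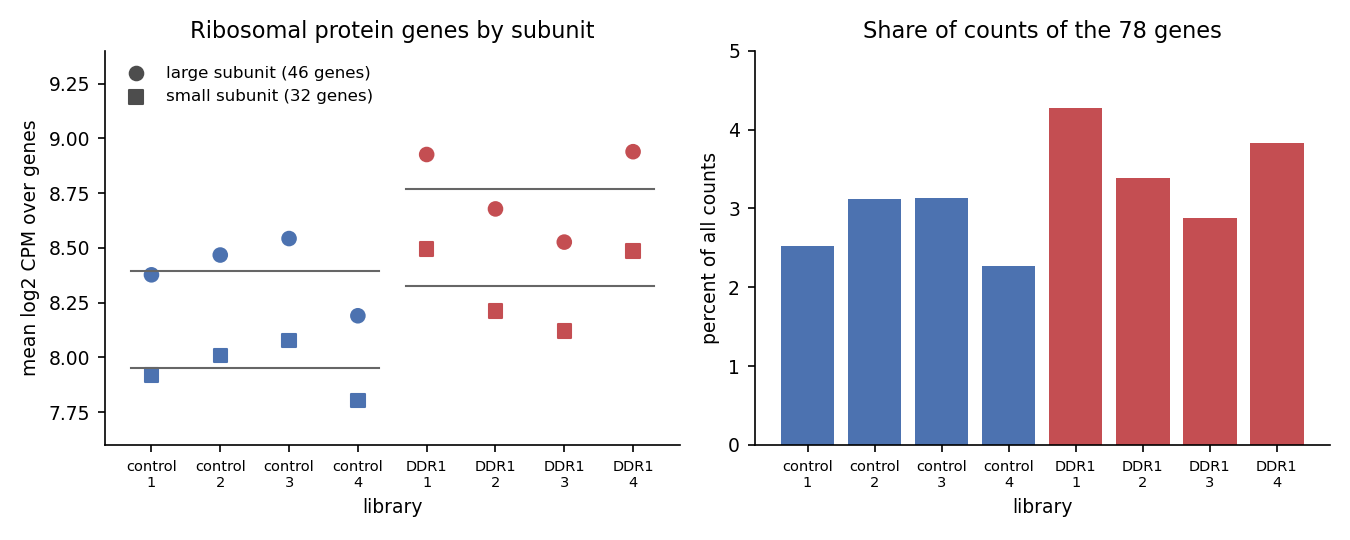
Left, mean log2 CPM of the 46 large-subunit and 32 small-subunit genes in each library, with lines at the group means; right, the percent of all expected counts taken by the 78 genes, with bars from 0. Both subunits move together from library to library, DDR1 replicates 1 and 4 are the highest, and DDR1 replicate 3 at 2.88% lies inside the control range of shares.

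Large and small subunit differed little in their change. All 46 large-subunit genes had a log2 fold change above 0, with a median of 0.38, 10 at an unadjusted edgeR p under 0.05 and 6 whose groups did not overlap. Of the 32 small-subunit genes 31 were above 0, with a median of 0.36, 7 at an unadjusted edgeR p under 0.05 and 6 whose groups did not overlap. The distance between the subunits within a library, mean log2 CPM of large minus small, was 0.442 ± 0.0374 in controls and 0.439 ± 0.0266 in DDR1 (SD, n = 4 each). The large subunit took 63.8% ± 0.654 of the summed CPM of the family in controls and 64.0% ± 1.01 in DDR1 (SD, n = 4 each). Both distances changed by less than the spread between libraries.

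The genes were also ordered by level per length, as CPM per kilobase of the median annotated protein-coding transcript, averaged over the 8 libraries. Between genes this level ran from 60.5 for RPS28 to 1476 for RPS24, a 24.4-fold range within a family whose proteins are built in at about equal numbers. The median was 635 for large-subunit and 430 for small-subunit genes. RPS26 (107) and RPS29 (116) were the next lowest of the small subunit and RPL14 (193) the lowest of the large, while RPL26 (1389) was the highest of the large. The length used was 1326 bases for RPS28 and 1140 for RPS26, against a family median of 681, which lowers their level per length. Without division by length, mean CPM ran from 67.9 to 939. Most genes of the family have short transcripts, with near-identical pseudogenes and several annotated isoforms. A level per length thus carries the uncertainty of the counting and of the length used.

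For 12 members every DDR1 library lay above every control library, against 1.27% of all genes tested, and for 0 members the reverse held (2.4% of all genes had groups apart in either direction). Among them were RPL3, RPL7, RPL10, RPL17, RPL28 and RPL37 of the large and RPS2, RPS15A, RPS20, RPS23 and RPS29 of the small subunit. RPL17 was the only one of the 12 with an unadjusted edgeR p above 0.05 (0.054).

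RPS23, a protein of the decoding centre where codon and anticodon are matched, read 292, 297, 201 and 269 CPM in controls and 456, 396, 352 and 396 CPM in DDR1. The lowest DDR1 library stood clear of the highest control, and control replicate 3 was the low control. This is a log2 fold change of 0.60 (standard error 0.18, edgeR unadjusted p = 0.00732). RPS2, at the entry of the messenger RNA channel, read 664, 890, 805 and 598 CPM in controls and 996, 984, 987 and 1586 CPM in DDR1. DDR1 replicates 1 to 3 lay close together and replicate 4 far above them. The log2 fold change of RPS2, 0.62 (standard error 0.22, edgeR unadjusted p = 0.0204), was 0.43 without DDR1 replicate 4. RPS29, a small zinc-binding protein of the subunit head, read 50.1, 52.6, 41.0 and 53.6 CPM in controls and 115, 68.1, 59.0 and 103 CPM in DDR1, a log2 fold change of 0.81 (standard error 0.23, edgeR unadjusted p = 0.00587). The DDR1 libraries split into a pair near the controls and a pair well above them.

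On the large subunit, RPL3, which reaches towards the peptidyl transferase centre, read 441, 443, 551 and 450 CPM in controls and 821, 575, 571 and 812 CPM in DDR1. Control replicate 3 came close to DDR1 replicates 2 and 3, and DDR1 replicates 1 and 4 were high. RPL3 had a log2 fold change of 0.56 (standard error 0.19, edgeR unadjusted p = 0.0151). RPL10, added late in assembly and needed for the subunits to join, read 507, 471, 551 and 494 CPM in controls and 876, 680, 598 and 911 CPM in DDR1. The controls were among the tightest of the family, and the log2 fold change was 0.60 (standard error 0.18, edgeR unadjusted p = 0.00863). RPL37, a zinc-binding protein of the large subunit, read 398, 380, 247 and 422 CPM in controls and 506, 458, 713 and 559 CPM in DDR1. Here DDR1 replicate 3, a low library for most members, was the highest, and control replicate 3 the lowest (log2 fold change 0.63, standard error 0.22, edgeR unadjusted p = 0.0176).

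The extremes of the family behaved differently from its middle. RPS16, a protein of the small-subunit head, had the largest log2 fold change, 1.17 (standard error 0.40, edgeR unadjusted p = 0.0161). It read 75.9, 96.0, 81.9 and 51.9 CPM in controls and 92.3, 101, 161 and 335 CPM in DDR1, so the groups overlapped and DDR1 replicate 4 carried most of the difference. Without that library its log2 fold change was 0.64. RPS7, the only member below 0, read 396, 317, 512 and 340 CPM in controls and 501, 392, 325 and 304 CPM in DDR1, with fully mixed groups (log2 fold change -0.04, standard error 0.22). RPL9 was next (0.02 with a standard error of 0.17), then RPS27A (0.08) and RPS3A (0.09).

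**Figure D2:**
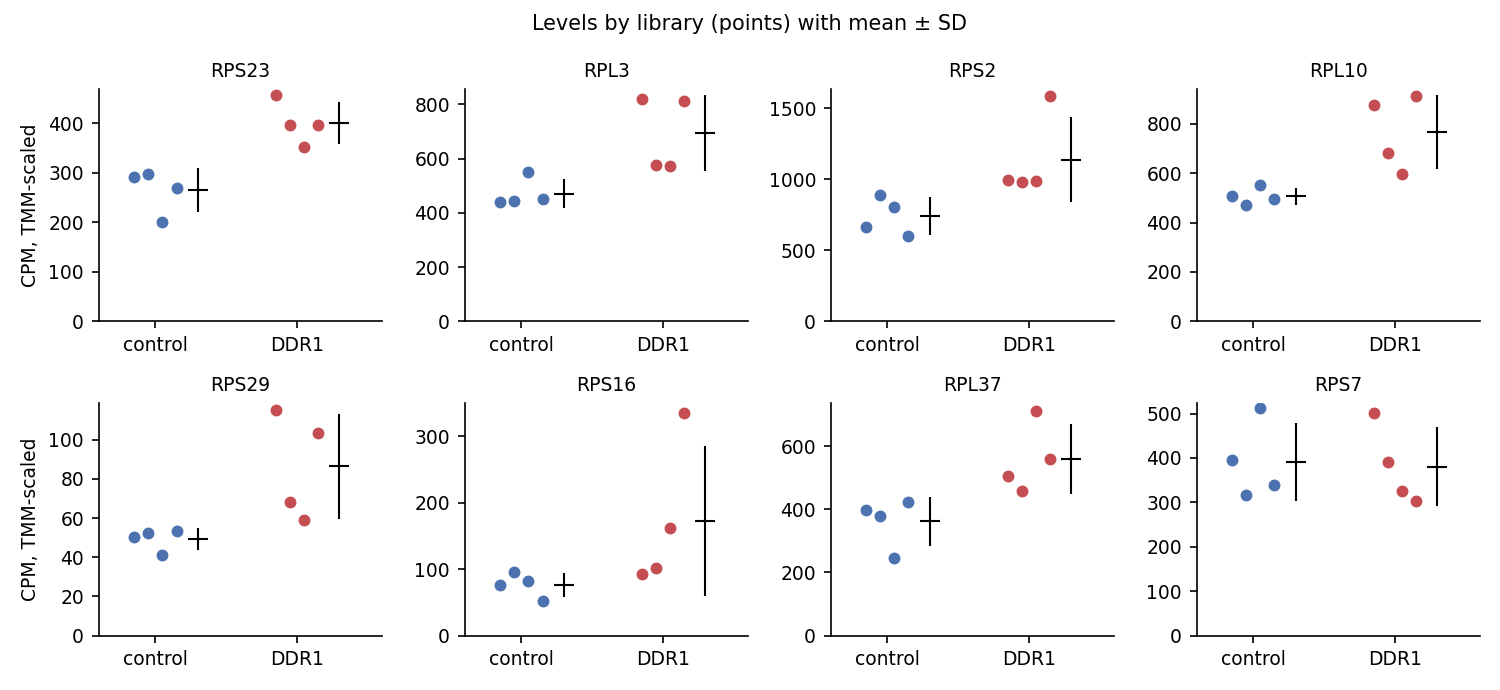
TMM-scaled CPM of 8 ribosomal protein genes in each library (points, replicates 1 to 4 from left to right) with the group mean ± SD (bars, n = 4), each axis from 0. RPS23, RPL3, RPS2, RPL10, RPS29 and RPL37 have groups that do not overlap, RPS16 is spread by DDR1 replicate 4 at 335 CPM, and the groups of RPS7 are mixed.

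**Figure D3:**
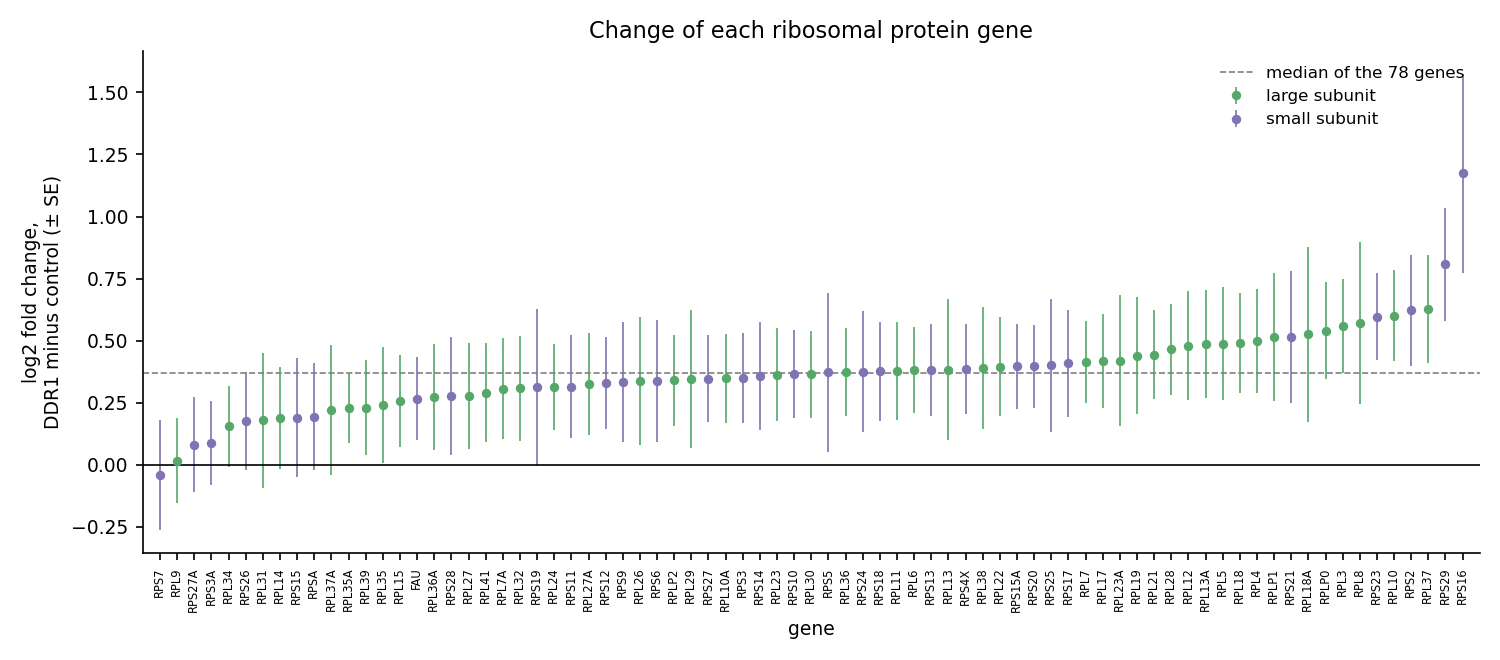
Log2 fold change, DDR1 minus control, of 77 of the 78 genes in order, with bars of 1 standard error from edgeR and a dashed line at the family median of 0.37; colours mark the subunit. Apart from RPS16 and RPS29 at the top, the genes form a continuous series from -0.04 (RPS7) to 0.63 (RPL37), with large-subunit and small-subunit genes interleaved.

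Grouped by place in the ribosome, each group lay above 0 and 0 of its genes were called. The stalk that recruits elongation factors is made of RPLP0, RPLP1 and RPLP2, with log2 fold changes of 0.54, 0.51 and 0.34. RPLP0, the base of the stalk, read 566, 522, 697 and 558 CPM in controls and 978, 785, 640 and 1003 CPM in DDR1 (edgeR unadjusted p = 0.0211), with DDR1 replicate 3 inside the control range. RPLP1 owed much to 1 library, at 154 to 176 CPM in controls and 157, 222, 196 and 383 CPM in DDR1, and its log2 fold change was 0.20 without DDR1 replicate 4. RPL5 and RPL11, which with 5S ribosomal RNA form a particle built in as a unit, had log2 fold changes of 0.49 and 0.38. RPL11 read 703, 798, 502 and 516 CPM in controls and 930, 789, 775 and 779 CPM in DDR1, with control replicate 2 reaching into the DDR1 values.

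The 7 proteins at the rim of the exit tunnel, through which the new chain leaves, had log2 fold changes from 0.18 (RPL31) to 0.44 (RPL19) with a median of 0.34, and RPL17 alone of them had groups that did not overlap. The 9 proteins of the decoding site and messenger RNA path ran from 0.18 (RPS26) to 0.62 (RPS2) with a median of 0.28. RPS27A and FAU, which are made as fusions with ubiquitin or a ubiquitin-like protein, had 0.08 and 0.27. RPS6, the substrate of the S6 kinases downstream of mTOR, read 292, 405, 594 and 296 CPM in controls and 534, 448, 575 and 451 CPM in DDR1, with control replicate 3 above all DDR1 libraries (log2 fold change 0.34, standard error 0.25). RPS4X, encoded on the X chromosome, had 0.39 with a standard error of 0.18. Of 10 genes mutated in Diamond-Blackfan anaemia, an inherited failure of red cell production, 9 were above 0 with a median of 0.34, and 0 had an unadjusted p under 0.05.

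The members followed each other across libraries to different degrees. The correlation of a gene's log2 CPM with the mean of the other 77 members over the 8 libraries ran from 0.17 to 0.97 with a median of 0.76, and 68 genes were above 0.5. These are descriptions over 8 points that share library, scaling and group. The coefficient of variation within a group had a median of 19.4% in controls and 17.8% in DDR1, with a highest value of 65.3% for RPS16 in DDR1.

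Part of the departures from the family followed the chromosome on which a gene lies, a comparison chosen after its values were seen. For each library, a member's log2 CPM relative to its own mean and to the family was set beside the mean departure of the other protein-coding genes of the same chromosome. Over the 8 libraries this correlation had a median of 0.65, was above 0 for 70 and above 0.5 for 54 of the 78 members, and ranged from -0.77 (RPL8) to 0.98 (RPS3A). It is given without a test, since members of a chromosome share libraries and neighbours.

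Chromosome 5 carries RPS14, RPS23 and RPL37. In control replicate 3 the mean of these members stood at -0.63 relative to the family on the log2 scale, and the mean of 617 other protein-coding genes of the chromosome stood at -0.60. In the other 7 libraries the mean of the 3 members lay between -0.16 and 0.27 and that of the other genes between -0.23 and 0.29. Single members went beyond these means, as RPL37 did in DDR1 replicate 3 (0.73) and RPS14 in control replicates 1 (0.49) and 2 (-0.40). The low control replicate 3 value of RPS23 and RPL37, on which part of their log2 fold change rests, was thus shared by the chromosome. Chromosome 2 carries RPS7, RPL31, RPL37A and RPS27A, and in DDR1 replicate 4 their mean stood at -0.58 beside -0.55 for 912 other genes. In control replicate 3 it stood at 0.43 beside 0.36. Chromosome 4 carries RPL9, RPS3A and RPL34, with a mean of -0.39 for the members and -0.41 for other genes in DDR1 replicate 4. The 5 members with the smallest log2 fold changes, RPS7, RPL9, RPS27A, RPS3A and RPL34, lie on these last chromosomes, whose other protein-coding genes had median log2 fold changes of -0.19 (chromosome 2) and -0.24 (chromosome 4). The other genes of chromosome 5 had 0.06.

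Subtracting from each member the mean difference of the other protein-coding genes of its chromosome left all 78 members above 0, with a median of 0.40 and a lowest value of 0.18 (RPS15). The SD of the log2 fold change over the members went from 0.170 to 0.132, and without RPS16 and RPS29 from 0.135 to 0.102. RPS29, on chromosome 14, went from 0.81 to 0.45, since the other genes of that chromosome had a mean difference of 0.36; RPS16, on chromosome 19, stayed at 1.16. RPS7 went from -0.04 to 0.20. On chromosome 5, whose other genes had a mean difference of 0.04, RPS23 went from 0.60 to 0.56 and RPL37 from 0.63 to 0.59.

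**Figure D4:**
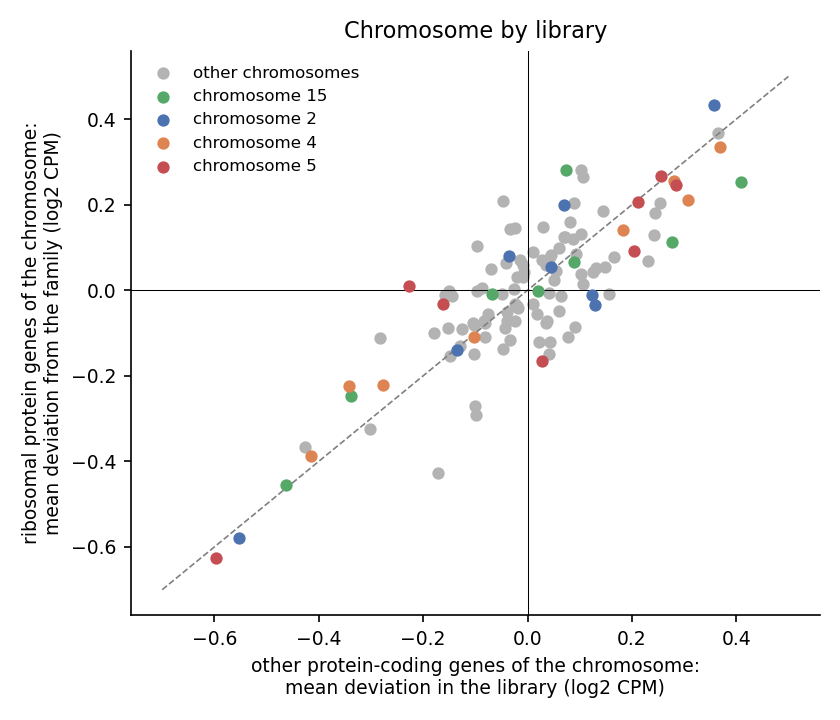
Mean departure of the ribosomal protein genes of a chromosome from the family (vertical axis) against the mean departure of the other protein-coding genes of that chromosome (horizontal axis), both in log2 CPM, 1 point for each library and each of the 15 chromosomes with at least 3 members; the dashed line marks equality. Chromosomes 2, 4, 5 and 15 reach farthest along the line, down to -0.63 against -0.60 for chromosome 5 in control replicate 3.

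The rest of the translation and ribosome production pathway split by kind of gene. These lists were set with earlier results of these data known, and 0 of their genes were called. Other genes of the TOP class, mostly elongation and initiation factors and including the ribosomal protein RACK1, had 20 of 21 tested members above 0 and a median log2 fold change of 0.30. In this list 4 members had an unadjusted edgeR p under 0.05, all higher in DDR1, against 1.93% of all genes in that direction. EEF1A1, which brings aminoacyl-tRNA to the ribosome, read 4129, 4521, 4130 and 4145 CPM in controls and 6214, 5094, 5007 and 5939 CPM in DDR1. Its groups did not overlap, and DDR1 replicates 1 and 4 were again the high pair (log2 fold change 0.39, standard error 0.17, edgeR unadjusted p = 0.0486). EEF2, the translocation factor, had 0.59, EIF3L 0.57 and EEF1G 0.45. The member below 0 was EIF4A2, a helicase of initiation, at -0.06. RACK1 had 0.39. VIM, which is in this list, is also among the T24 markers above.

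Host genes of small nucleolar RNAs, many of them with TOP starts, were above 0 for 8 of 14, against 49.5% of all genes tested, with a median of 0.26. Of the 14, 1 had an unadjusted edgeR p under 0.05, against 4.17% of all genes. This was ZFAS1 (101 ± 8.41 CPM in controls, 132 ± 23.4 in DDR1, SD, n = 4 each, log2 fold change 0.38, edgeR unadjusted p = 0.0417). GAS5, a classic member of this class, was at -0.01.

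The genes that build ribosomes lay on both sides of 0. Of 30 ribosome biogenesis factors 12 were above 0, with a median of -0.10 and 0 at an unadjusted edgeR p under 0.05. FBL, the methyltransferase of box C/D particles, had 0.39, PNO1 -0.41, UTP20 -0.22 and NOP2 -0.21. Of 14 genes of RNA polymerase I and its factors 6 were above 0, with a median of -0.03 and 0 at an unadjusted p under 0.05. POLR1A, its largest subunit, had -0.49 with a standard error of 0.24. The difference between these lists and the ribosomal protein genes was not tested.

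Regulators of the pathway were above 0 for 9 of 15 tested, with a median of 0.06. TSC1, a brake on mTOR, was the 1 member of 15 at an unadjusted edgeR p under 0.05 (0.032), against 4.17% of all genes tested. It was lower in DDR1, at 77.7, 69.3, 102 and 85.3 CPM in controls and 60.3, 66.1, 70.5 and 55.4 CPM in DDR1. DDR1 replicate 3 lay just above the lowest control (log2 fold change -0.41, standard error 0.16). TSC2 went the other way, at 0.26 with a standard error of 0.21, and activity of the mTOR pathway was not tested. MTOR was at -0.13, LARP1 at 0.09, MAX at 0.39 and MAF1, a repressor of RNA polymerase III, at 0.35.

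**Figure D5:**
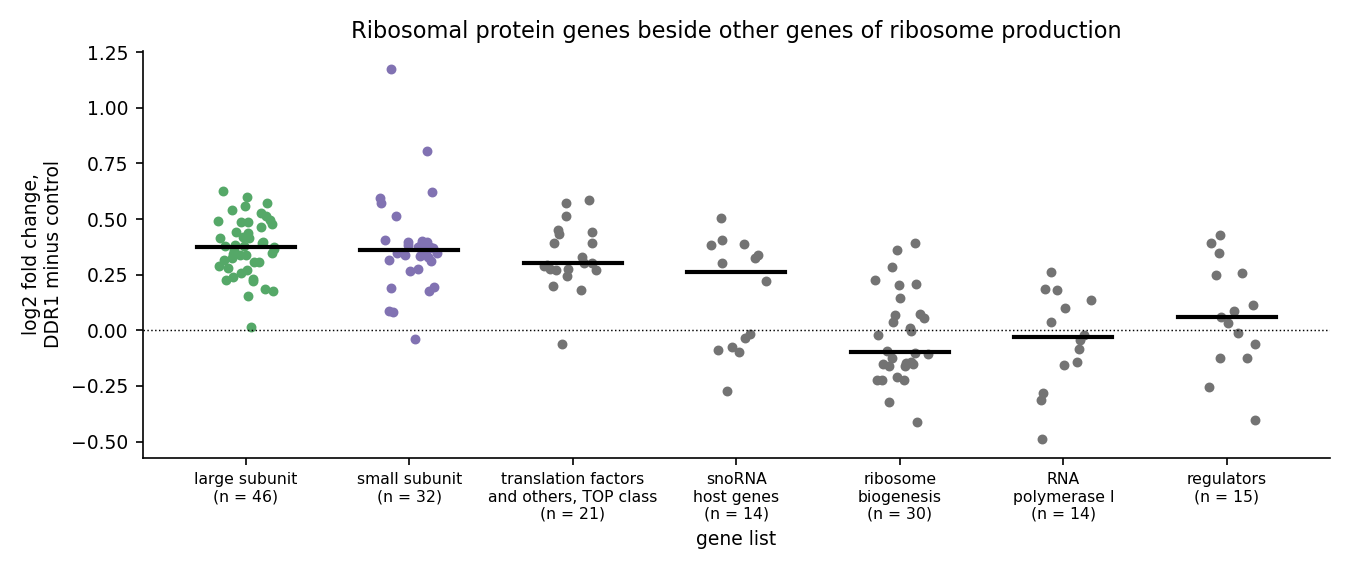
Log2 fold change, DDR1 minus control, of each tested gene (points) in the 2 ribosomal subunits and 5 other lists, with a bar at the median of each list. Ribosomal protein genes of both subunits and the other TOP-class genes lie almost all above 0, with medians of 0.38, 0.36 and 0.30, while ribosome biogenesis factors and RNA polymerase I genes lie on both sides, with medians of -0.10 and -0.03.

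Other protein-coding genes with short, abundant transcripts had a median nearer 0 than that of the family. The members had a median transcript length of 681 bases (359 to 1526), against 1866 bases for other protein-coding genes tested. Other protein-coding genes under 1000 bases numbered 3202, of which 52.1% were above 0 with a median log2 fold change of 0.01. Those that also reached 100 CPM in controls numbered 397, of which 56.9% were above 0 with a median of 0.03. They were not matched to the members in level, and the part of length and level in the family's values was not tested.

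Ribosomal protein genes have very many processed pseudogenes, and reads can be split between a gene and its copies. The annotation listed 1134 pseudogenes named after 77 of the members. Of these 806 had counts in some library and 147 were tested, 82 of them above 0, with a median log2 fold change of 0.10. Per library the pseudogenes held 2.03% to 2.55% of the counts of members and pseudogenes together. For single genes the share was larger: 24.5% for RPL9, 19.5% for RPL23A, 17.0% for RPL22 and 11.2% for RPS2. Of the members' expected counts 76.8% were not whole numbers, as arises when the counting program divides reads. With pseudogene counts added to their parent gene the family median was 0.37, with 77 genes above 0, so the summed values differ little, while the value of a single gene remains uncertain.

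Neighbours on the genome add a second uncertainty. A tested gene lies across 35 of the members, for 8 of these with the same orientation, and whether the counting used strand is not stated. The members' introns hold 60 annotated small nucleolar RNAs in 28 hosts. Of these 16 were tested, 11 of them above 0, with a median of 0.06. The only 1 of the 16 at an unadjusted edgeR p under 0.05, against 4.17% of all genes tested, was SNORA21B in RPL23. It was lower in DDR1 (0.856 ± 0.256 CPM in controls, 0.411 ± 0.209 in DDR1, SD, n = 4 each), while its host had 0.36. SNORA21, in the same host, went the other way, at 0.65 with a standard error of 0.39. These levels are very low and the libraries were selected on poly-T beads, so they may not measure the small nucleolar RNAs themselves.

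The tested paralogs that the rule left out lay above 0, except RPL22L1, which lay within its standard error of 0.21 from 0. RPL36AL, a close copy of RPL36A, had a log2 fold change of 0.56 with a standard error of 0.26, RPS27L 0.43 and RPL39L 0.35, while RPL26L1 had 0.09, RPL7L1 0.04 and RPL22L1 -0.01. Their partners RPL36A, RPS27, RPL39, RPL26, RPL7 and RPL22 had 0.27, 0.35, 0.23, 0.34, 0.41 and 0.40. The readthrough loci RPL17-C18orf32 and RPS10-NUDT3 had 0.23 and -0.07, and RPS19BP1, a binding protein and no part of the ribosome, 0.01. None of these reached an unadjusted edgeR p under 0.05, the smallest being 0.058 for RPL36AL.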

How the data were processed

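Per the labels' protocols, tumour RNA was column-purified, selected on poly-T beads, fragmented, copied from random hexamers and sequenced as paired ends of 150 bp. Per the submitters' processing notes, reads were handled with RSEM 1.3.1, STAR 2.7.5, Trim Galore 0.6.4 and FastQC 0.11.9 on GRCh38. Not given in the sources used here are the annotation release, the settings and the handling of mouse reads. The authors deposited expected counts per gene, rounded here to whole numbers before each count test. A second table that the authors deposited holds TMM values already in log2 units, and limma-trend used these unaltered, where a linear scale had been allowed for; single-library files repeat that table and were not used.

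Genes were matched to GENCODE release 29 (58039 of 58302). edgeR 4.0.16 (R 4.3.3) kept genes with filterByExpr at a minimum count of 10, scaled by TMM and compared 4 DDR1 with 4 control libraries by the quasi-likelihood test with no covariate; adjusted p under 0.05 was called. DESeq2 1.42.0 and limma 3.58.1 were alternatives. A prior count of 2 went into log2 CPM. No pair of libraries agreed within sampling noise (lowest chi-square per degree of freedom 32.2). Start windows are RefSeq sequences on GRCh38.p14. With 13716285 to 32271016 expected counts a library, the spread between libraries far exceeded counting error for these abundant genes.

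Members and lists were chosen with earlier results of these data known. The rule for named genes took DDR1, RPS23, RPL3 and RPS2, members at the extremes of change and of level per length in each subunit, members whose groups do not overlap, the role groups, the paralogs and readthrough loci, and up to 4 genes with the smallest p of each pathway list; others were named after their values were seen, and some genes and 1 list are not reported here. Alternatives were other scalings, filters, tools and gene sets, pseudogene counts added, each library left out, libraries of a title prefix summed, and each kind of control lane left out.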

Additional observations from a re-analysis of the deposited data

Results flagged for a closer look

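In 12 of 168 groups of 4 libraries (each gene in each group, and the summaries of the family) 1 library stood apart by Dixon's criterion, meaning that its gap to the nearest neighbour took up nearly all of the group's range; chance sets apart about 1 in 20 groups. Among controls, replicate 3 stood high for RPL3 (0.921 of the range), RPL13A (0.871) and RPL7A (0.832), and replicate 2 stood high for RPS25 (0.945), where it held 519 CPM beside 233 to 249 CPM. In the DDR1 group, the library labelled DDR1 replicate 1 stood high for RPL11 (0.915), RPL17 (0.898) and RPS15A (0.851). DDR1 replicate 2 stood low for RPS25 (0.836), replicate 3 stood low for RPL35A (0.944) and RPL23 (0.924), and replicate 4 stood high for RPS2 (0.980), at 1586 CPM. The distance of large from small subunit was low in control replicate 4 (0.896), at 0.386 on the log2 scale beside 0.457 to 0.465.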

How the results depend on the processing

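No paired analysis was possible because the labels give the groups no shared replicate numbers; the numbers used here follow accession order and name a library only. The number of ribosomal protein genes called was 0 under all 21 alternatives, and the family median stayed between 0.31 and 0.44, with 73 to 78 genes above 0. The count at an unadjusted p under 0.05, 17 in the main analysis, was 8 to 29 with 1 library left out. It was 9, 29, 27 and 8 without control replicates 1 to 4, and 11, 12, 25 and 10 without the libraries labelled DDR1 replicates 1 to 4. Summing libraries whose titles share a prefix gave 11, and it was 7 without the controls with no lane and 23 without those of lane 7; the cause was not tested. DESeq2 called 16 of all genes, where edgeR called 0; the cause was not tested. The DDR1 log2 fold change was 1.31 without the controls of lane 7 (edgeR unadjusted p = 0.0653), and 1.05 to 1.79 with 1 library left out.

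Values near 0 changed sign. With 1 library left out, RPL31 ran from -0.11 to 0.39, RPL9 from -0.065 to 0.13, RPS27A from -0.020 to 0.21, RPS3A from -0.010 to 0.17 and RPS7 from -0.20 to 0.12. Without the controls with no lane, RPL9 was -0.14, RPS26 -0.059, RPS3A -0.031 and RPS7 0.10. RPS7 was 0.14 with prefixes summed. The cause was not tested. These values rest on 4 libraries a group and 2 DDR1 prefixes, and the part of depth and of the spread between libraries in them was not tested.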
